A study of Mus musculus with 16 samples.

Results

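The TRAV10 family of mouse TCRα V segments comprises 3 near-identical copies, TRAV10, TRAV10D and TRAV10N. Its members were taken as every CDR3 nucleotide sequence (called a sequence here) whose first-listed V segment was one of these copies in the 8 libraries of all CD8 cells. That rule selected 1981 of 78671 sequences (2.52%), which carried 19742 of 815759 reads (2.42%). They comprised 661 sequences listed as TRAV10, 936 as TRAV10D and 384 as TRAV10N, and they encoded 1551 distinct amino acid CDR3s. No count threshold applied, so all 1981 sequences entered the measures below.

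A TCRα chain is made in the thymus when one of many V segments is joined to one of many J segments in front of the constant region. The CDR3 is the stretch across that join, from the conserved cysteine of the V segment to the conserved phenylalanine of the J segment, and its middle faces the peptide held by the MHC molecule. Exonuclease trimming, short palindromic additions that copy the end of a segment backwards, and untemplated bases vary the join. The mouse V cluster holds duplicated stretches, whose copies carry names ending in D or N.

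The study compared Themis+/+ with Themis-/- mice on the C57BL/6 background. Themis is a T cell signalling adaptor that thymocytes need for positive selection. All groups carried a Foxp3-GFP reporter allele and the knockout was in the germline. Cells of both genotypes were sorted as single-positive CD8 thymocytes or as CD8 T cells of the lymph node (LN), which gave 4 groups of 2 libraries, numbered 1 and 2 in the labels. The study's methods pool lymph nodes of several mice of a genotype, whereas the design text speaks of individual mice. The p-values therefore measure the spread between libraries and may not measure that between animals. The legend of the study's TCR figure combines 2 individual experiments per genotype. The labels do not say whether libraries share mice or an experiment, and the tests over 8 libraries treat them as independent. The libraries held 57455 to 146191 reads and 107 to 460 family sequences each. PCR reads without molecular identifiers are not independent molecules, so intervals cover counting error only, and in a pool of cells more cells of a clone and more TCR mRNA per cell cannot be told apart. The 8 further libraries of sorted Vα3.2+ cells held 0 family reads, which allows at most 0.0119% to 0.0290% of their reads. The TCRα chain of invariant NKT cells (TRAV11 or TRAV11D with TRAJ18) took at most 0.419% of the reads of a library of all CD8 cells, its highest values lying in Themis-/- thymus, and that of MAIT cells (TRAV1 with TRAJ33) at most 0.0424%.

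All 3 segments lie on chromosome 14 of GRCm38, on the plus strand, each as a TCR V gene with 2 exons in the GENCODE annotation. TRAV10D occupies chr14:52810934-52811496, TRAV10N chr14:53122114-53122610 and TRAV10 chr14:53505727-53506286. TRAV10D is thus the copy farthest from the J segments and TRAV10 the nearest, 649.3 kb before TRAJ61, the first J segment. J numbers fall along the chromosome towards the constant region, so TRAJ61 is the J segment closest to the V cluster and TRAJ2 stands near the constant region. The coding sequences have 343 bases each. Counted from the A of the start codon, TRAV10N differed from TRAV10D by G57A, T251C and G258A, of which T251C changes a residue (I84T). TRAV10 differed from TRAV10D by G42A, C84T and C150T, none of which changes a residue. The nearest of these bases to the CDR3 lies 73 bases before it, so nothing inside a CDR3 separates the copies. Their shared end is shown because it sets the first residues of the CDR3. The capitals mark the 13 germline bases of the CDR3, which encode Cys-Ala-Ala-Ser and the first base of codon 5.
TRAV10D, TRAV10N and TRAV10 end: tcagccatctacttcTGTGCAGCAAGCA
The CDR3s found in the most libraries are shown next with codon 5 in capitals, since the data on position 5 turn on that codon. The number of libraries given is that of the amino acid sequence, and the nucleotide form shown is the one found in the most libraries, with ties broken by reads.
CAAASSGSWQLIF with TRAJ22, in 6 libraries: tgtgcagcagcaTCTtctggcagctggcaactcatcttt
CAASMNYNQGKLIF with TRAJ23, in 5 libraries: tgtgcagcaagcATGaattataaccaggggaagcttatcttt
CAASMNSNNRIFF with TRAJ31, in 4 libraries: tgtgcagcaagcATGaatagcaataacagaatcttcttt
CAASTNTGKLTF with TRAJ27, in 4 libraries: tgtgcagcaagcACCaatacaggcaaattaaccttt
CAASPDYSNNRLTL with TRAJ7, in 4 libraries: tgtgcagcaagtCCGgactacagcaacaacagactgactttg
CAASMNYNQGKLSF with TRAJ23, in 4 libraries: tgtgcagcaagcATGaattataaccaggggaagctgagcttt
In the 3 with methionine at position 5 the whole V end is kept and its last base opens the codon ATG. The forms shown of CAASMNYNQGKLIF and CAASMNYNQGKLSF differ only inside the TRAJ23 part, and whether they are separate joins was not tested. In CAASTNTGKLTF the same base opens ACC, which encodes threonine, and in CAASPDYSNNRLTL the V bases end before codon 5.

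The family made up between 1.83% and 3.49% of the reads of each library. In Themis+/+ thymocytes it made up 2.61% and 2.41% of reads, and in Themis-/- thymocytes 1.98% and 2.09%. The Themis+/+ LN libraries held 2.74% and 2.70%. The Themis-/- LN libraries held 3.49% and 1.83% and lay on either side of both Themis+/+ LN libraries. By its mean share of reads the family ranked 11 of the 26 V families.

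Reads were compared per V family with edgeR's quasi-likelihood test over 23 families. The family did not pass an adjusted p of 0.05 in any comparison, against a background of 4.35% of families called between the genotypes in LN and 0.0% in each other comparison. Themis-/- against Themis+/+ gave a log2 fold change of -0.10 in LN (SE 0.36, edgeR adjusted p = 0.865), with values from -0.57 to 0.40 when each LN library was left out in turn, and of -0.25 in thymus (SE 0.36, edgeR adjusted p = 0.888). LN against thymus gave 0.19 in Themis+/+ (SE 0.36, edgeR adjusted p = 0.894) and 0.35 in Themis-/- (SE 0.36, edgeR adjusted p = 0.635). Without Themis-/- LN library 2 the last of these was 0.74 and was called (edgeR adjusted p = 0.0385), and without Themis-/- LN library 1 it turned to -0.12 (edgeR adjusted p = 0.677). The genotype effect differed by 0.16 between the tissues (SE 0.51, edgeR adjusted p = 0.916).

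**Figure D1:**
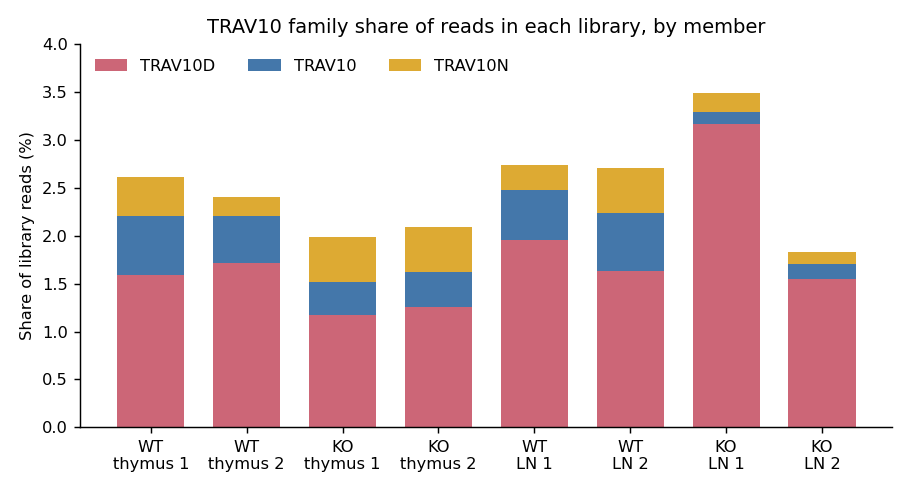
Share of all reads of a library (%) that was listed as TRAV10D, TRAV10 or TRAV10N, stacked, in each of the 8 libraries (WT, Themis+/+; KO, Themis-/-). The stacks reach 1.83% to 3.49%, and TRAV10D is the tallest part of each.

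TRAV10D took most of the family reads. Over the 8 libraries it held 68.8% of family reads and 47.2% of family sequences, TRAV10 17.3% and 33.4%, and TRAV10N 13.9% and 19.4%. TRAV10D made up 1.59% and 1.72% of all reads in Themis+/+ thymus, 1.18% and 1.25% in Themis-/- thymus, 1.95% and 1.63% in Themis+/+ LN and 3.16% and 1.55% in Themis-/- LN. TRAV10 made up 0.616% and 0.493% in Themis+/+ thymus, 0.347% and 0.367% in Themis-/- thymus, 0.526% and 0.609% in Themis+/+ LN and 0.133% and 0.158% in Themis-/- LN. TRAV10N made up 0.411% and 0.197% in Themis+/+ thymus, 0.461% and 0.474% in Themis-/- thymus, 0.254% and 0.468% in Themis+/+ LN and 0.190% and 0.124% in Themis-/- LN. TRAV10 and TRAV10N were thus at their lowest in the Themis-/- LN libraries.

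Between the genotypes in LN, TRAV10 and TRAV10N were lower in both Themis-/- libraries than in both Themis+/+ libraries, and so were 25.4% of the 114 V segments tested, so this separation is common. TRAV10 showed a log2 fold change of -1.99 (SE 0.63, edgeR adjusted p = 0.0750), which missed the threshold of 0.05. DESeq2 called it (adjusted p = 0.0056), as it called 7 of the 114 V segments (6.14%). TRAV10N showed -1.24 (SE 0.68, edgeR adjusted p = 0.332) and TRAV10D, whose groups overlapped, 0.38 (SE 0.38, edgeR adjusted p = 0.622). Without Themis-/- LN library 1 the value of TRAV10D was -0.25 (edgeR adjusted p = 0.736). Counted as distinct sequences in place of reads, the log2 fold changes in LN were -0.61 for TRAV10 (edgeR adjusted p = 0.287) and 0.19 for TRAV10N (edgeR adjusted p = 0.897). With edgeR 1.75% of V segments were called in this comparison, none of them a member.

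In thymus, TRAV10 and TRAV10D were lower in both Themis-/- libraries, as were 23.7% of V segments, and TRAV10N was higher in both, as were 21.9%. Their log2 fold changes were -0.55 (SE 0.60), -0.36 (SE 0.38) and 0.71 (SE 0.67), each with an edgeR adjusted p of 0.838, and 0.0% of V segments were called. At an unadjusted p under 0.05 no member passed in thymus either.

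Between LN and thymus, no member separated the Themis+/+ groups, where 29.8% of V segments did. The log2 fold changes were 0.19 for TRAV10, 0.26 for TRAV10D and 0.42 for TRAV10N (SE 0.60, 0.38 and 0.67), each with an edgeR adjusted p of 0.934 and with 0.0% of V segments called. In Themis-/- mice the 3 members separated LN from thymus without overlap. TRAV10 and TRAV10N were lower in both LN libraries, as were 28.9% of V segments, and TRAV10D was higher in both, as were 15.8%. Their log2 fold changes were -1.26 for TRAV10 (SE 0.62, edgeR adjusted p = 0.294), -1.54 for TRAV10N (SE 0.69, edgeR adjusted p = 0.223) and 1.0 for TRAV10D (SE 0.38, edgeR adjusted p = 0.176). All 3 had an unadjusted p under 0.05 (0.0464, 0.0293 and 0.0126 in edgeR), as had 18 of the 114 V segments (15.8%). None passed the adjusted threshold, and 2.63% of V segments did. Without Themis-/- LN library 2 TRAV10D was called (log2 fold change 1.58, edgeR adjusted p = 0.0023), and without library 1 of that group it was 0.37 (edgeR adjusted p = 0.623). Counted as distinct sequences, TRAV10 changed direction between the tissues of Themis-/- mice (log2 fold change 0.15, edgeR adjusted p = 0.85). The test of the difference between the genotypes' tissue effects called 0.877% of V segments and no member (TRAV10 -1.44, TRAV10D 0.74 and TRAV10N -1.95 on the log2 scale, edgeR adjusted p = 0.765, 0.819 and 0.765).

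Which copy a sequence was assigned to moved with the reads behind it. Of the 373 family sequences seen in 1 read, 53.6% were listed as TRAV10 and 18.2% as TRAV10D. Of the 111 sequences with over 30 reads, 7.21% were listed as TRAV10 and 80.2% as TRAV10D. TRAV10N fell from 28.2% to 12.6% between the same bins. In 99.8% of family sequences the second V hit was another copy of the family, and the best score was shared by several hits in 16 sequences. Of 94 nucleotide sequences found in at least 2 libraries, 59 were given different copies in different libraries. Whether these were separate joins of different copies, whose CDR3 ends are the same, was not tested. A sequence that differed by 1 base from a TRAV10D sequence with at least 5 times its reads in the same library was listed as TRAV10 in 41.5% of 159 cases and as TRAV10D in 37.7%. Member-level read shares therefore carry an uncertainty that the family total does not.

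**Figure D2:**
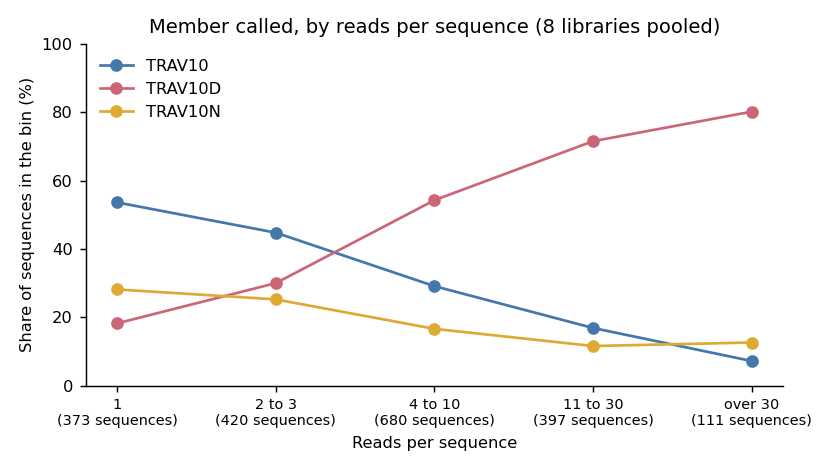
Share of the sequences in a bin (%) listed as each member, against the reads per sequence, with the 8 libraries pooled and the number of sequences under each bin. TRAV10D rises from 18.2% of sequences seen in 1 read to 80.2% of those with over 30 reads.

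The copies differed in the J segments they had joined, a measure that the V assignment does not use. TRAJ2 to TRAJ18, the J segments towards the constant region, took 15% ± 8.2 of TRAV10 sequences, 28.4% ± 10.9 of TRAV10D sequences and 40.4% ± 10.9 of TRAV10N sequences (mean ± SD over 8 libraries). In each of the 8 libraries TRAV10 had the lowest of these shares and TRAV10N the highest. For each of the 3 pairs of copies the exact sign-flip permutation test over libraries gave p = 0.0078, the smallest it allows for 8 libraries, and an adjusted p of 0.0176 over the 9 tests of this kind.

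The shares of TRAJ48 to TRAJ61, the end nearest to the V cluster, ran the other way. They were 14.9% ± 5.3 for TRAV10, 9.21% ± 1.8 for TRAV10D and 3.44% ± 3.09 for TRAV10N. TRAV10 exceeded TRAV10N in 8 of 8 libraries (difference 11.5 percentage points, two-sided exact permutation test, adjusted p = 0.0176), and TRAV10D exceeded TRAV10N in 7 of 8 (5.77 percentage points, adjusted p = 0.0281 in the same exact test). TRAV10 exceeded TRAV10D in 7 of 8 (5.73 percentage points, adjusted p = 0.0469 in the same exact test). The median J number was 31 for TRAV10, 27 for TRAV10D and 22 for TRAV10N sequences. This order is not that of the copies along the chromosome, where TRAV10D and not TRAV10N lies farthest from the J segments.

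These J measures by copy were chosen after the data had been seen. Among sequences with 11 or more reads, of which TRAV10 and TRAV10N had 75 and 60, every difference kept its direction and none passed (adjusted p from 0.169 to 0.367, exact permutation test). The difference between TRAV10 and TRAV10D at TRAJ48 to TRAJ61 also lost the threshold when tied V hits were left out, when sequences 1 base apart were merged and without each library in turn other than Themis+/+ LN library 2. That between TRAV10D and TRAV10N there was lost without 6 of the 8 libraries in turn, each time with an adjusted p of 0.0563 in the exact permutation test.

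**Figure D3:**
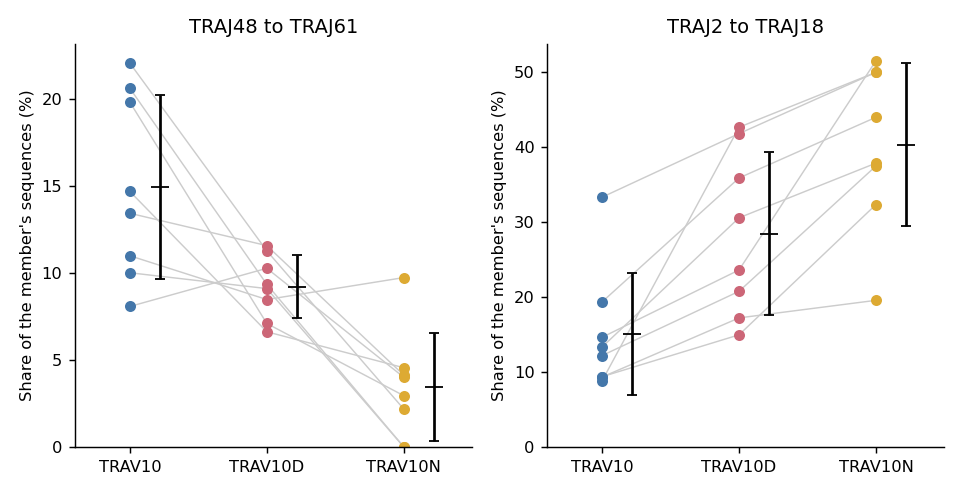
Share of a member's sequences (%) that joined TRAJ48 to TRAJ61 (left) or TRAJ2 to TRAJ18 (right), with 1 point per library, grey lines joining the points of a library and black bars for the mean ± SD of 8 libraries. On the right TRAV10 lies lowest and TRAV10N highest within every library, and on the left the means fall from 14.9% to 3.44%.

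Taken as a family, the J partners were broad. Of the 44 J segments in the libraries, 43 had at least 1 family sequence, and the one without was TRDJ1, a J segment of the TCRδ chain. TRAJ31 was the most used, with 9.52% of family sequences on average over libraries against 4.91% among other V segments. Its share of sequences was highest, 16.8%, in Themis-/- LN library 1 and lowest, 0.763%, in Themis-/- LN library 2. By reads it was 5.72% and 0.0676% there, and the highest was 15.3% in Themis+/+ thymus library 2. TRAJ23 followed with 7.25% (other V segments 5.08%), TRAJ12 with 6.47% (4.91%), TRAJ33 with 6.11% (4.02%) and TRAJ49 with 5.17% (4.18%). No family sequence with TRAJ33 was found among the 107 of Themis-/- LN library 1, whereas Themis+/+ LN library 2 had 10.3%.

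The family was set against all other V segments within each library, in 14 measures. Those of inserted bases and of bases past the V end are counted from the end of the V alignment by which the rows were chosen. They stay in the adjustment over the 14 but are given with no p. None passed the adjusted threshold over those 14. The share of TRAJ48 to TRAJ61 was 10.1% against 14.8% and lower in 8 of 8 libraries (two-sided exact sign-flip permutation test, p = 0.0078, adjusted p = 0.109). TRAJ29 to TRAJ36 took 26.2% against 19.8% and was higher in 7 of 8 libraries (exact permutation p = 0.0391, adjusted p = 0.182). The inserted bases per join, 2.11 against 1.99, were higher in 4 of 8 libraries.

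Reads of pairs of V family and J segment were tested over 694 pairs, of which 41 held the TRAV10 family. One of the 41 was called, the TRAV10 family with TRAJ13 in LN against thymus of Themis-/- mice (log2 fold change 4.71, SE 1.05, edgeR adjusted p = 0.0049), where 0.432% of all pairs were called. In the other comparisons edgeR called no pair of the family, with 0.144% of all pairs called between genotypes in LN and 0.0% in thymus and between the tissues of Themis+/+ mice. At an unadjusted p under 0.05 there were 5 pairs of the family between genotypes in LN (12.2%, against 10.5% of all pairs), 0 in thymus (2.74% of all pairs), 1 between tissues of Themis+/+ (2.44%, against 2.02%) and 7 between tissues of Themis-/- (17.1%, against 8.79%). DESeq2 called 3 pairs of the family between genotypes in LN (7.32%, against 5.04% of all pairs) and 2 between tissues of Themis-/- (4.88%, against 5.44%), and none in the others. Between the genotypes in LN the same pair gave 3.20 (SE 0.98, edgeR adjusted p = 0.183).

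Family reads with TRAJ13 numbered 81 and 15 in Themis+/+ thymus, 57 and 45 in Themis-/- thymus, 15 and 120 in Themis+/+ LN and 1249 and 18 in Themis-/- LN. The called pair rests on Themis-/- LN library 1. Without that library the log2 fold change between the tissues was -0.72 (edgeR adjusted p = 0.908). The call was also lost without either Themis-/- thymus library (edgeR adjusted p = 0.185 and 0.107), and in DESeq2 the pair missed the threshold (adjusted p = 0.123). With the replicate number as a block it was 4.11 (edgeR adjusted p = 0.196). Fitted on the 2 groups compared alone, it was 4.79 (edgeR adjusted p = 0.404). Between the genotypes in LN the pair turned to -2.23 without Themis-/- LN library 1 (edgeR adjusted p = 0.688) and fell to 2.26 without Themis+/+ LN library 1 (edgeR adjusted p = 0.571). It was called there without Themis-/- LN library 2 (4.19, edgeR adjusted p = 0.0013), without Themis+/+ LN library 2 (6.39, edgeR adjusted p = 0.0236) and in the fit of the 2 groups alone (3.44, edgeR adjusted p = 0.0332). The 1249 reads belonged to 14 sequences, and 747 of them to 1 sequence.

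That sequence, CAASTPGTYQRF of TRAV10D with TRAJ13, was the largest clone of all V segments in its library, with 32.1% of family reads. A further 403 reads belonged to 4 sequences that differed from it by 1 base each within 4 neighbouring positions near its 3′ end. The 5 sequences, which together held 49.5% of the family reads of the library, are shown because the count of clones there depends on them. Positions count from 1 at the first CDR3 base, and the capital marks the changed base.
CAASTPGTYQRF, 747 reads: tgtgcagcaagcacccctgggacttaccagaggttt
G30T, 145 reads: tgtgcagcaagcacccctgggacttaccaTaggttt
A31T, 96 reads: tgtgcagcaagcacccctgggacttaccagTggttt
G32T, 111 reads: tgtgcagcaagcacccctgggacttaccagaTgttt
G33T, 51 reads: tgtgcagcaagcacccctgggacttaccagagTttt
All 4 neighbours were listed as TRAV10D with TRAJ13. In the whole family 12.1% of sequences differed by 1 base from a sequence with at least 5 times their reads in the same library, against 12.6% among other V segments, and 81.7% of those differences lay in the last 15 bases. Whether they are PCR or sequencing errors was not tested.

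The other largest sequences were smaller. They held 66 and 130 reads in Themis+/+ thymus (2.02% and 5.49% of family reads), 146 and 70 in Themis-/- thymus (5.04% and 2.89%), 126 and 160 in Themis+/+ LN (3.67% and 10.3%) and 181 in Themis-/- LN library 2 (12.2%). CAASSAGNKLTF with TRAJ17 was the largest in both Themis+/+ thymus library 1 and Themis+/+ LN library 2 with the same 36 bases, and it was listed as TRAV10D in the former and as TRAV10N in the latter. Both Themis-/- LN libraries had a larger top share than both Themis+/+ LN libraries, as did 41.7% of the other 12 families with at least 30 sequences in every library. For 2 libraries against 2 the exact permutation test cannot go below p = 0.33, the value found here.

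At 1480 family reads drawn from each library, Themis-/- LN had 97.8 and 131.0 distinct sequences and Themis+/+ LN 265.6 and 162.9, means of 114.4 ± 23.5 and 214.3 ± 72.6 (SD, n = 2). The groups did not overlap (exact permutation p = 0.33), and the same held, with fewer in Themis-/-, for 91.7% of the other 12 families. In thymus the counts were 246.0 and 237.9 in Themis-/- and 381.2 and 230.8 in Themis+/+, which overlapped. In Themis-/- mice both LN libraries lay below both thymus libraries, as they did in 100% of the other families. Fewer distinct sequences in Themis-/- LN were therefore common to nearly all V families compared. With sequences 1 base apart merged the LN means were 95.6 ± 21.8 and 191.0 ± 70.2.

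**Figure D4:**
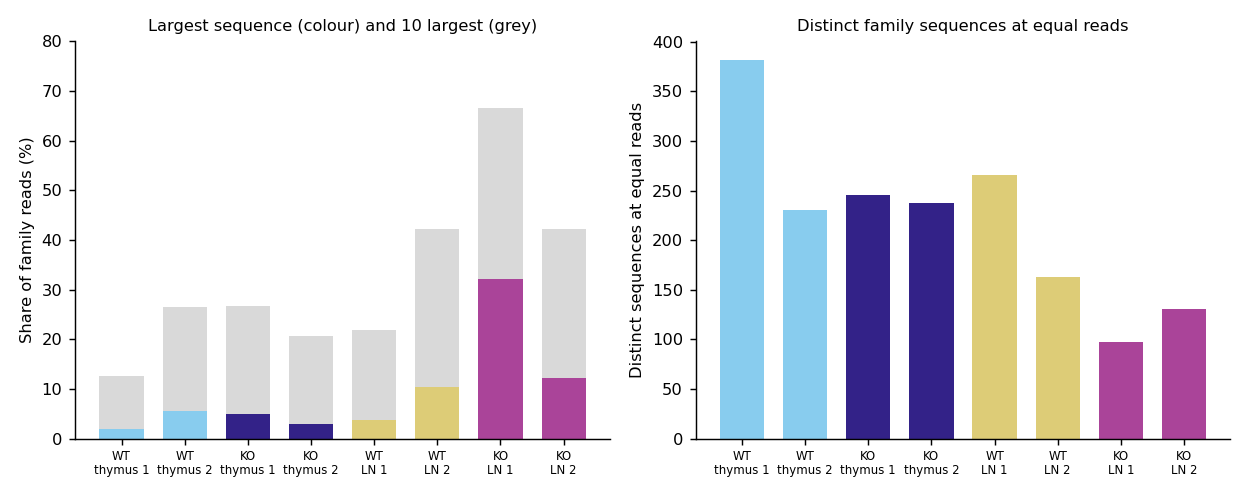
Left, share of family reads (%) held by the largest sequence (coloured bar) and by the 10 largest together (grey bar) in each library (WT, Themis+/+; KO, Themis-/-). Right, distinct family sequences at 1480 family reads. KO LN 1 has the tallest bars on the left, 32.1% and 66.6%, and the lowest on the right.

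Position 5 of the CDR3 was read next, since the study discusses the residue there. It belongs to the V end in part, and the rows were chosen by V alignment, so its values against other V segments are a description with no test. Methionine was the most frequent residue, with 14.9% of family sequences against 3.39% of sequences of other V segments (mean of 8 libraries). Glycine had 10.6% (11.7%), threonine 10.1% (5.52%), arginine 9.29% (3.96%) and asparagine 8.49% (6.73%). Isoleucine had 4.78% against 1.41% and leucine 3.61% against 3.01%. The acidic residues were rare, with 5.27% aspartate against 15.6% and 1.71% glutamate against 13%. Methionine, threonine, asparagine and isoleucine were higher, and aspartate and glutamate lower, than among other V segments in all 8 libraries.

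**Figure D5:**
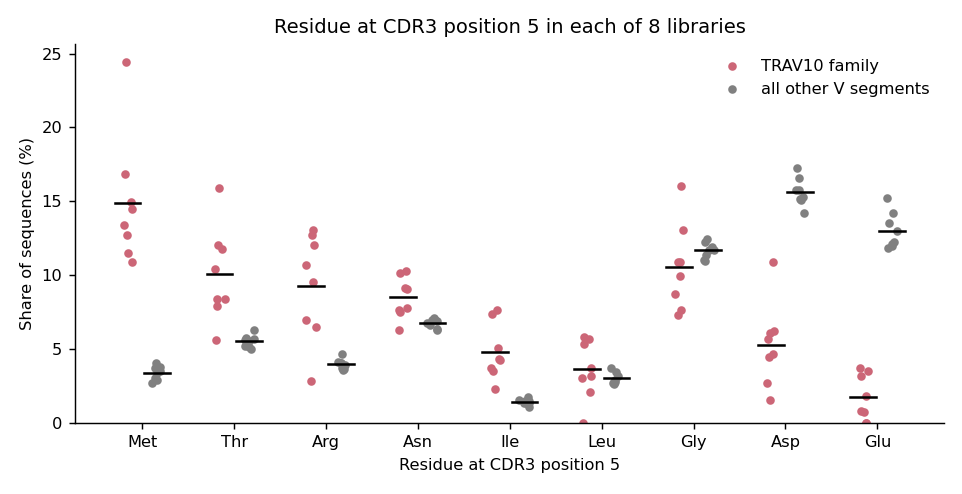
Share of sequences (%) with each residue at CDR3 position 5, with 1 point per library for the TRAV10 family (red) and for all other V segments (grey), and a black line at the mean of 8 libraries. Methionine stands at 14.9% against 3.39% and glutamate at 1.71% against 13%.

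Among the 13 families with at least 30 sequences in every library, TRAV10 had the highest mean share of methionine at position 5 (14.9%). TRAV9 followed with 14.6% and TRAV7 with 11%. The lead over TRAV9 rested on Themis-/- LN library 2 (24.4%), as the TRAV10 mean over the other libraries lay below that of TRAV9. By library the share was 11.5% and 10.9% in Themis+/+ thymus, 13.4% and 14.5% in Themis-/- thymus, 16.8% and 12.7% in Themis+/+ LN and 15% and 24.4% in Themis-/- LN. The highest, 32 of 131 sequences, had a 95% Wilson interval of 17.9% to 32.4%, and the lowest, 28 of 257, one of 7.65% to 15.3%. In thymus both Themis-/- libraries lay above both Themis+/+ libraries. The genotypes separated there in 40.7% of the position 5 cases of the other 12 families. In LN the genotypes overlapped, with a difference of 4.91 percentage points (exact permutation p = 0.667). Against thymus, both LN libraries were higher in Themis+/+ mice (3.57 percentage points) and in Themis-/- mice (5.75 percentage points), each with the smallest exact permutation p possible, 0.33. For the residues at position 5 of the other 12 families such separations made up 32.4% and 30.6% of cases. By reads in place of sequences the shares were 11.3% and 13.6% in Themis+/+ thymus, 18.1% and 13% in Themis-/- thymus, 17.8% and 8.49% in Themis+/+ LN and 9.81% and 19.2% in Themis-/- LN. On that count the groups overlapped in each of these comparisons, and the mean of Themis-/- LN lay below that of Themis-/- thymus.

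Codon 5 lies at the end of the V bases. The V end brings the base A to codon 5, which began with A in 51.9% of family sequences and in 21.1% of others, while G began it in 23.1% and 55.0%. Aligned V bases reached codon 5 in 855 family sequences (43.2%), and there methionine made up 31%, threonine 14.7%, arginine 14.7%, isoleucine 11.3% and glycine 0%. In the 1126 sequences whose V bases ended earlier, methionine made up 1.24%, glycine 18.1%, proline 12.5% and asparagine 9.86%. All 279 methionines were encoded by ATG, its sole codon. In 229 of them (82.1%) the alignment extended the V end by exactly 2 palindromic bases, TG. After the base A these 2 bases spell ATG, so the 2 counts are not independent.

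Some J segments can supply the same TG. The germline starts of the 4 J segments most used by the methionine sequences are shown with no capitals, since none is changed.
TRAJ23: tgaattataaccaggggaagcttatctttg
TRAJ21: tgtctaattacaacgtgctttacttcggat
TRAJ31: ggaatagcaataacagaatcttctttggtg
TRAJ49: gaacacgggttaccagaacttctattttgg
TRAJ23 and TRAJ21 begin with TG. In 91 of the 279 methionine sequences (32.6%) the TG and the next 6 bases also matched the germline J segment, 69 of them among the 229 with 2 palindromic bases, and in 135 (48.4%) the V and J alignments overlapped by at least 1 base, so the source of a base cannot always be told apart. These 279 sequences used 32 J segments. TRAJ23 gave 43 of them, TRAJ31 39, TRAJ49 26 and TRAJ21 25. For TRAJ31 and TRAJ49, whose germline starts above do not begin with TG, 0 of the methionine sequences had that match over the whole TG and 6 bases, although in the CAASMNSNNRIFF form shown above the TRAJ31 alignment overlapped the last V base, the G of ATG. The share of methionine did not pass the test between members (TRAV10 15.8% ± 7.8, TRAV10D 16.5% ± 4.6 and TRAV10N 9.89% ± 4.97, mean ± SD over 8 libraries, adjusted p from 0.0603 to 0.742 in the exact permutation test).

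The CDR3s had a mean length of 13.27 residues against 13.53 for other V segments and were shorter in all 8 libraries, again with no test because the V end enters the length. Lengths of 13 and 14 residues were the commonest, with means of 30.7% and 29.2% of family sequences, and which of them was the larger varied between libraries. From the end of the V bases onward 27.7 bases followed against 28.1, fewer in 7 of 8 libraries, with no p given because the count starts at the V end. The mean net charge was 0.624 against 0.419 and higher in all 8 libraries. Past position 5 the charge was 0.520 against 0.611 and lower in 7 of 8 libraries (exact permutation p = 0.0938, adjusted p = 0.263), so the higher charge lay in the first 5 residues. At position 5 the acidic residues were lower, as given above, and of the basic ones arginine had the values above and lysine 4.14% against 0.585%. V bases were trimmed by 1.56 on average against 1.96, and palindromic V bases were aligned in 22.4% of sequences against 27.6%, both lower in all 8 libraries.

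Across genotype and tissue, 28 measures of position 5, length, charge, hydropathicity, joins, J regions and clone size were compared in 4 comparisons. The groups did not overlap in 50 of the 112 cases (44.6%), against 41.4% in the other 12 families. These were 11 of 28 between genotypes in LN, where the other 12 families gave 45.2%, and 15 in thymus (51.8%). Between LN and thymus they were 10 in Themis+/+ (28.9%) and 14 in Themis-/- (39.6%). For position 5 itself the other 12 families gave 30.6% and 40.7% between genotypes in LN and in thymus and 32.4% and 30.6% between the tissues of Themis+/+ and Themis-/- mice. For joins and J regions they gave 46.7%, 63.3%, 25.0% and 40.0% in the same order. In LN, TRAJ10 to TRAJ18 held 32.7% and 27.5% of Themis-/- and 7.94% and 19.4% of Themis+/+ family sequences, and TRAJ29 to TRAJ36 held 25.2% and 13% against 31.7% and 29.1%. Neither pair of groups overlapped, and with 2 libraries a side the exact permutation p of 0.33 is the smallest possible. Among all other V segments both regions separated the LN genotypes in the same direction. There TRAJ10 to TRAJ18 held 20.8% and 18.1% of Themis-/- and 11.7% and 15.9% of Themis+/+ sequences. TRAJ29 to TRAJ36 held 19.79% and 19.39% against 22.06% and 19.83%. The 32.7% of Themis-/- LN library 1 includes 13.1% with TRAJ13. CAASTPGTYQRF and its 4 neighbours 1 base apart are among these, so near-copies of 1 clone enter that share.

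Of the 1551 amino acid CDR3s, 132 (8.51%) occurred in at least 2 libraries, and the family ranked 11 of 13 families by this share. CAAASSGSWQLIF occurred in 6 libraries with 55 reads in all. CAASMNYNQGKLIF occurred in 5 libraries with 131 reads, in 4 nucleotide forms, 84 of the reads in Themis-/- LN library 1. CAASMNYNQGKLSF, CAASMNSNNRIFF, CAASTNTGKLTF and CAASPDYSNNRLTL occurred in 4 libraries each. Every library with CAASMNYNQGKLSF also held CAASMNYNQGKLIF. In Themis+/+ thymus library 2, Themis-/- thymus library 1, Themis+/+ LN library 1 and Themis-/- LN library 1, the former had 3, 11, 1 and 45 reads. The latter had 13, 13, 18 and 84 there, and its form shown keeps the germline TRAJ23 bases where the 2 differ. CAASPDYSNNRLTL was encoded by 9 nucleotide sequences and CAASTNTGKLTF by 1. Of the 37 CDR3s in at least 3 libraries, 11 (29.7%) had methionine at position 5, against 173 of the 1419 found in 1 library (12.2%). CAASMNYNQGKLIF and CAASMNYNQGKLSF both count among the 11.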

How the data were processed

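TCRα cDNA of sorted CD8 cells was amplified by 5′ RACE with constant-region primers and read on a MiSeq, and the authors extracted clonotypes with MiXCR (version not given in the sources used here). CASAVA 1.4 is named in the submitters' processing notes, as is the build mm9. The authors deposited for each library the raw read count of every CDR3 nucleotide sequence and its fraction of the library's reads, without normalization; counts were used here. Each sequence was assigned to its first-listed V and J segment, so segments shared by near-identical copies are uncertain. PCR errors that clustering left would add sequences.

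Reads per V segment, V family and V-J pair were compared by the quasi-likelihood test of edgeR 4.0.16 after TMM scaling, with 1 coefficient per group over the 8 libraries (features of 10 or more reads in 2 or more libraries, Benjamini-Hochberg adjustment, threshold 0.05), with DESeq2 1.42.0 as an alternative, in R 4.3.3. The fit and the permutation tests were tested on simulated data. Other measures were compared with two-sided exact permutation tests, over 8 libraries within library (sign flip) or 2 against 2, in Python 3.11.15 (scipy 1.17.1, numpy 2.4.6 and pandas 2.3.3; figures with matplotlib 3.10.9). Measures that read V bases (position 5, length, whole charge and hydropathicity, trimming) were meant to be tested against other V segments. They are given with no p because the rows were chosen by V alignment. Inserted bases and bases past the V end were tested and stay in the adjustment. Their p-values are left out because they are counted from the V end. V-J pairs were also fitted on distinct sequences, without each library and, added after seeing the data, on sequences of at least 2 reads and on the 2 groups compared alone. Segment positions and sequences come from GENCODE M21 on GRCm38, not the authors' build, and no coordinate was converted.

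The members and lists were chosen with earlier results of these data known. Named beside the 3 members were the 5 J segments with the highest mean share, called V-J pairs, the 5 most frequent residues at position 5 with M, I, L, D and E, up to 6 CDR3s found in the most libraries and the largest clone of each library. TRAJ13 without its library, TRAJ21, the J regions by member and the 1-base neighbours were looked at after their values were seen. Same-numbered libraries did not deviate together (correlation over V segments -0.24 to 0.05), so the numbers were not treated as pairs. With 2 libraries per group this cannot show whether same-numbered libraries share mice or an experiment.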

Additional observations from a re-analysis of the deposited data

Results flagged for a closer look

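Asparagine at CDR3 position 5 separated the genotypes in opposite directions in the 2 tissues. In LN both Themis-/- libraries lay below both Themis+/+ libraries (7.48% and 7.63% against 10.2% and 9.09% of family sequences, a mean difference of -2.07 percentage points), and in thymus both lay above (2.69 percentage points). The difference between the tissues, -4.76 percentage points, was not tested.

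Isoleucine at the same position behaved alike. In LN it made up 3.74% and 2.29% of the 107 and 131 Themis-/- family sequences. In Themis+/+ LN it made up 5.08% and 4.24% of the 315 and 165 family sequences, so these shares rest on few sequences. In thymus it made up 7.39% and 7.63% against 4.35% and 3.50%. Themis-/- less Themis+/+ was -1.65 percentage points in LN and 3.59 in thymus, with no overlap in either tissue and a difference between the tissues of -5.24 percentage points, which was not tested. With 107 to 460 family sequences per library and 9 residues examined, separations of 2 libraries from 2 are frequent here. In the other 12 families the genotypes separated in 30.6% of position 5 cases in LN and 40.7% in thymus. How often the directions were opposite there was not counted.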

How the results depend on the processing

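Of 994 alternative values of 82 results, 898 were labelled unchanged. For tested values this meant the same direction and the same side of the threshold. Counts and values with no test were labelled unchanged within a set margin, even where the sign changed. Hydropathicity against other V segments, for example, ran from -0.194 to 0.0106 without 1 library. With 2 libraries per group and 107 to 460 family sequences each, the data limit what could be called. DESeq2 called 1 member in LN between genotypes (none in edgeR), 3 TRAV10-J pairs there and 2 between LN and thymus in Themis-/-. Over all features it called 6.14% of V segments in the former and 5.04% and 5.44% of pairs in these comparisons. Fits of only the 2 groups compared, added after seeing the data, called 1 and 0 of these pairs. Leaving out 1 library moved the number of pairs called between 0 and 1 in both comparisons and the number of members called between LN and thymus of Themis-/- from 0 to 1. In that last comparison 0 pairs were called on distinct sequences in place of reads.

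With the replicate number as a block 0 of these pairs were called, and 0 with the numbers crossed in Themis-/-. The block moved the calls over all V segments and comparisons from 5 to 3 (4 crossed) and over all V-J pairs from 4 to 2 (2 crossed), left 1 call among V families, and changed no call of a member. The labels give same-numbered libraries only a number in common and do not say whether they share mice or an experiment.

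Counts of measures one way in all 8 libraries changed as follows. Residues at position 5 went from 6 to 3 by reads, 3 in CDR3s of 14 residues and 3 without single reads. Length went from 1 to 0 by reads, charge and hydropathicity from 1 to 2 without the first 3 and the last residue, and joins and J partners from 0 to 2 tests passed by reads. Clone size went from 0 to 1 by reads, where the share of the largest sequence in its set's reads replaced effective clones. The other V segments hold far more reads than the family, which lowers that share whatever the clone sizes. This pass therefore cannot speak to clone size. Between groups, non-overlapping cases by reads were 2 for length (1 before) and 2 for charge and hydropathicity (6 before), and without single reads 4 for clone size (7 before). Sharing was 5.06% for nucleotide CDR3s.

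The J differences by member kept their direction in all alternatives. With 11 or more reads none passed (TRAJ2 to TRAJ18: -14.5, -28.3 and -13.8 percentage points for TRAV10 less TRAV10D, TRAV10 less TRAV10N and TRAV10D less TRAV10N; TRAJ48 to TRAJ61: 8.89, 12.6 and 3.72). For TRAV10 less TRAV10D at TRAJ48 to TRAJ61, merging gave 5.33, leaving out ties 5.52 and leaving out a library 4.74 to 6.87. For TRAV10D less TRAV10N there, leaving out a library gave 5.26 to 6.77.

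Of the called values, only that of the TRAJ13 pair reversed; the other reversals were of values that had passed no test. On distinct sequences, log2 changes became 0.15 for TRAV10 between tissues in Themis-/- and 0.11 for its interaction, 0.19 for TRAV10N between genotypes in LN, -0.23 for TRAV10N between tissues in Themis+/+ and 0.035 for its interaction. Without 1 library, log2 changes ran between genotypes in LN from -0.57 to 0.40 for the family and -0.25 to 1.01 for TRAV10D, and from -2.23 to 6.39 for TRAJ13 pairs. Between tissues of Themis+/+ they ran from -0.0050 to 0.20 for TRAV10, -0.0067 to 0.32 for TRAV10D and -0.19 to 0.87 for TRAV10N. Between tissues of Themis-/- they ran from -0.12 to 0.74 for the family (interaction -0.32 to 0.55) and -0.72 to 5.69 for TRAJ13 pairs. Family less other V ranged from -0.0193 to 4.21 for effective clones per 100 sequences, -1.0 to 0.468 for reads per sequence, -0.167 to 2.70 points for TRAJ19 to TRAJ28, -0.0067 to 0.166 for inserted bases and -0.714 to 2.27 points for TRAJ10 to TRAJ18. Merging gave -0.415 points for TRAJ10 to TRAJ18 and 0.0826 reads per sequence, leaving out single reads 0.203 reads per sequence, and counting reads -1.36 points for TRAJ19 to TRAJ28. The causes were not tested.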
